A study of Rattus norvegicus with 12 samples.

Results

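The urinary bladder 28 days after complete transection of the spinal cord was compared with the bladder of control rats. The comparison was defined by the sample labels alone: of the 12 libraries in the series, 3 were labelled as day 28 and 3 as normal control, and these 6 made up the contrast. All animals were female Wistar rats aged 10 to 12 weeks. The injured groups had the cord cut through with a scalpel at thoracic segment 10, with the dura left intact, and their bladders were taken 7, 14 or 28 days later. The controls were labelled as normal, and a sham operation is not mentioned in the sources used here. The tissue was whole bladder, so each library mixed RNA from the urothelium, the connective tissue beneath it, the detrusor muscle, vessels, nerves and immune cells. In such bulk samples a change in the number of cells of a type and a change in RNA per cell cannot be told apart.

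The bladder stores urine under sympathetic control and empties when parasympathetic nerves release acetylcholine and ATP onto the detrusor. After a cord injury above the sacral segments the bladder first fails to contract and later contracts against a closed sphincter, so that it is overfilled, thickens and is prone to infection. The urothelium that lines it seals urine from the tissue through tight junctions and through plaques of uroplakin proteins on its outermost umbrella cells, and it also secretes antimicrobial factors and cytokines.

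The 3 control libraries held 27044344 to 28412801 counts and the 3 day 28 libraries 28847346 to 29510548. Of 40154 listed genes, 17687 passed the filter on low counts and were tested. Levels are given as CPM, counts scaled to a common library size by TMM factors, always in the order of replicates 1, 2 and 3, and differences as log2 fold change of day 28 over control ± the standard error, with p-values adjusted over all tested genes; a gene is called at an adjusted p below 0.05. The labels do not say that each library came from a separate animal, so the p-values measure only the spread between these libraries. Day 28 replicate 3 stood apart from replicates 1 and 2 on the second principal component, which held 22.6% of the variance. There it lay at -77.0 against -42.9 and -41.6 for replicates 1 and 2 and 18.2 to 20.0 for the controls. On the first component, with 35.2% of the variance, day 28 replicate 1 stood apart instead. It lay at 9.87 there, replicates 2 and 3 at 38.3 and 39.3, and the controls at -67.8 to -65.4. Values without day 28 replicate 3 are given beside many of the results that rest on that library. Mitochondrial transcripts took 5.99 to 6.97% of counts at day 28 and 6.16 to 7.07% in controls, and haemoglobin transcripts 0.0703 to 0.0965% and 0.0636 to 0.286%, so neither share separated the groups.

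At day 28, 1946 genes (11% of those tested) were called higher than in controls and 1329 (7.51%) lower, together 18.5%. The counts given for gene lists below stand beside these shares. At least a 2-fold difference (an absolute log2 fold change of 1) was reached by 1245 of the higher and 590 of the lower genes. The median over all tested genes was 0.000235, and the 3 libraries of each group did not overlap for 7158 genes. Leaving out any 1 library gave between 1209 and 1936 higher genes and between 760 and 1347 lower ones. The counts fell by more than 1.5 times for higher genes without control replicate 2 (1209) or 3 (1255), and for lower genes without control replicate 1 (844), 2 (762) or 3 (760), day 28 replicate 2 (838) or day 28 replicate 3 (829).

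**Figure D1:**
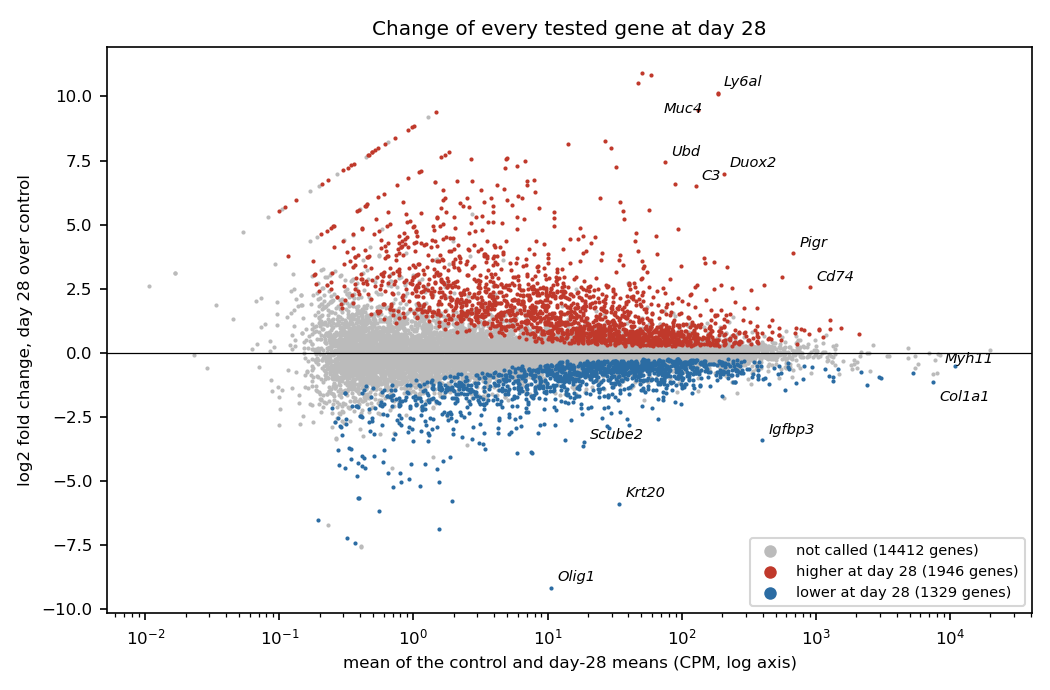
Log2 fold change of day 28 over control (vertical axis) against the mean level of each of the 17687 tested genes (horizontal axis, CPM on a log scale), with the 1946 genes called higher in red, the 1329 called lower in blue and the rest in grey. Ly6al (10.15) and Olig1 (-9.16) are among the points farthest from 0.

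The 12 largest rises among named genes included genes known from the mucosal surface, from inflammatory signalling and from lymphocytes. These rises, and the 12 largest falls below, were chosen only among genes whose day 28 libraries all lay outside the control range. Ly6al, a member of the Ly6 family of small membrane-anchored proteins on chromosome 7 (116557519 to 116561058, rn6), had 0.209, 0.656 and 0.107 CPM in the controls and 307, 90.1 and 711 CPM at day 28. Its log2 fold change was 10.15 ± 0.94 (adjusted p = 0.000111), and 9.25 without day 28 replicate 3. Every day 28 library was far above every control. Muc4, a membrane-bound mucin of chromosome 11 (71242973 to 71285217), stood at 0.313, 0.364 and 0.322 CPM in controls and at 1.67, 19.2 and 1089 CPM at day 28. The difference was 10.10 ± 2.13 (adjusted p = 0.00757). Here the size rested on day 28 replicate 3, since without it the log2 fold change was 4.95 (adjusted p = 0.00457), although both other day 28 libraries still exceeded all controls.

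Duox2, the dual oxidase that makes hydrogen peroxide at mucosal surfaces, and Duoxa2, the factor that matures it, rose together. Duox2 (chromosome 3, 114218187 to 114237808) went from 2.54, 4.26 and 2.82 CPM to 110, 213 and 900 CPM, a log2 fold change of 6.99 ± 0.85 (adjusted p = 0.000367). Duoxa2 went from 0.209, 0.911 and 0.143 CPM to 19, 39.0 and 136 CPM, a change of 7.26 ± 1.05 (adjusted p = 0.00100). The pair lie on opposite strands and overlap in rn6, and since how the counting used strand was not given in the sources used here, a share of the counts of each could belong to the other. Ubd, a ubiquitin-like modifier induced by inflammatory cytokines (chromosome 20, 1876175 to 1878126), held 0.835, 1.02 and 0.715 CPM in controls and 59.6, 56.1 and 332 CPM at day 28. Its log2 fold change of 7.44 ± 0.85 (adjusted p = 0.000254) was 6.07 without day 28 replicate 3.

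Il1a, the alarmin interleukin-1 alpha (chromosome 3, 121824712 to 121836122), rose from 0.139, 0.292 and 0.0715 CPM to 35.6, 21.7 and 102 CPM, by 8.28 ± 1.58 (adjusted p = 0.00458). Mmp7, the matrix metalloproteinase matrilysin of epithelia, rose from 0.104, 0.401 and 0.179 CPM to 23.8, 29.6 and 125 CPM, by 8.01 ± 1.48 (adjusted p = 0.00389). Cd3e, the epsilon chain of the T-cell receptor complex, rose from 0.0348, 0.328 and 0.0357 CPM to 8.04, 10.8 and 23.1 CPM, by 6.69 ± 0.93 (adjusted p = 0.000841). In each of these the lowest day 28 library was above the highest control by a wide margin, and day 28 replicate 3 was the highest.

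The other 4 of the 12 largest rises were less stable, and all were highest in day 28 replicate 3. Cxcl6, a neutrophil-attracting chemokine, had 3.4, 18.8 and 63.1 CPM at day 28 against 8 counts in all controls together, a log2 fold change of 8.16 ± 2.11 (adjusted p = 0.0202); the call was lost without any control library or without day 28 replicate 3 (adjusted p between 0.0550 and 0.0775), and without day 28 replicate 3 the log2 fold change was 6.81. Irg1, the itaconate-producing enzyme of activated macrophages, had 0.600, 6.19 and 33.8 CPM at day 28 (7.48 ± 1.86, adjusted p = 0.0168) and lost its call in the same 4 fits (0.0573 to 0.0691), with 5.49 without day 28 replicate 3; it overlaps Mycbp2, which has many more counts. Clca1, a secreted regulator of chloride channels in mucous epithelia, had 27.1, 54.1 and 448 CPM against 1.15, 2.48 and 1.82 CPM (6.6 ± 1.91, adjusted p = 0.0333). The call was lost in the same 4 fits and with a replicate block (0.0594 to 0.111), and without day 28 replicate 3 the log2 fold change was 4.48. Jchain, which joins IgA and IgM into polymers, had 0.500, 0.932 and 40.3 CPM (6.56 ± 1.66, adjusted p = 0.0182), lost its call in those 4 fits (0.0691 to 0.0940) and stood at a log2 fold change of 2.29 without day 28 replicate 3.

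The 12 largest falls included a keratin of the umbrella cell, genes known from neurons and glia, and a growth factor binding protein. Olig1, a basic helix-loop-helix transcription factor best known from oligodendrocytes (chromosome 11, 31428377 to 31430519), had 18.4, 22.3 and 23.2 CPM in controls and 0.0334, 0.0666 and 0 CPM at day 28. That is 1790 counts in the 3 controls against 3 counts in the 3 day 28 libraries, a ratio of 646 with a 95% counting interval of 221 to 3137 (log2 fold change -9.16 ± 0.77, adjusted p = 7.46e-05). Krt20, the keratin of umbrella cells (chromosome 10, 87342514 to 87351045), had 78.9, 63.2 and 60.2 CPM in controls and 0.867, 1.73 and 0.835 CPM at day 28. Its log2 fold change was -5.88 ± 0.37 (adjusted p = 2.23e-05), and all 3 day 28 libraries were close together and far below the controls. Igfbp3, the main carrier of insulin-like growth factors (chromosome 14, 87457647 to 87465374), fell from 858, 656 and 671 CPM to 65.5, 62.9 and 79.0 CPM, a change of -3.40 ± 0.28 (adjusted p = 7.37e-05).

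Among the 12 largest falls were 4 genes best known from neurons. Dcx, the microtubule protein doublecortin of young neurons, fell from 15.5, 14.1 and 13.7 CPM to 0.300, 2.06 and 0.482 CPM (-3.92 ± 0.66, adjusted p = 0.00229). Cntnap2, an adhesion protein of the axon beside the node of Ranvier, fell from 22.2, 31.0 and 20.7 CPM to 3.10, 2.50 and 1.35 CPM (-3.41 ± 0.32, adjusted p = 0.000115). Map2, a microtubule protein of dendrites, fell from 14.9, 16.7 and 14.4 CPM to 1.57, 1.96 and 1.70 CPM (-3.13 ± 0.30, adjusted p = 0.000131). Kcnb2, a delayed-rectifier potassium channel, fell by 3.86 ± 0.44 on the log2 scale (adjusted p = 0.000235). The groups could not overlap for these 4 genes, since the rule that chose them required it. The 4 calls held in every alternative fit run.

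Scube2, a secreted protein that helps release hedgehog ligands, fell from 30.0, 39.1 and 33.5 CPM to 3.60, 3.5 and 1.25 CPM (-3.62 ± 0.35, adjusted p = 0.000131). Egfl6, an extracellular matrix protein with EGF repeats, fell by 3.92 ± 0.44 (adjusted p = 0.000235), Aldh3a1, an aldehyde dehydrogenase of barrier epithelia, by 3.46 ± 0.40 (adjusted p = 0.000255) and Cyp3a18, a steroid- and drug-metabolising cytochrome, by 3.17 ± 0.49 (adjusted p = 0.00158). Prlr, the prolactin receptor, was lower by 3.09 ± 0.85 (adjusted p = 0.0264), but its call was lost when any 1 of the 6 libraries was left out (0.0595 to 0.0801).

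**Figure D2:**
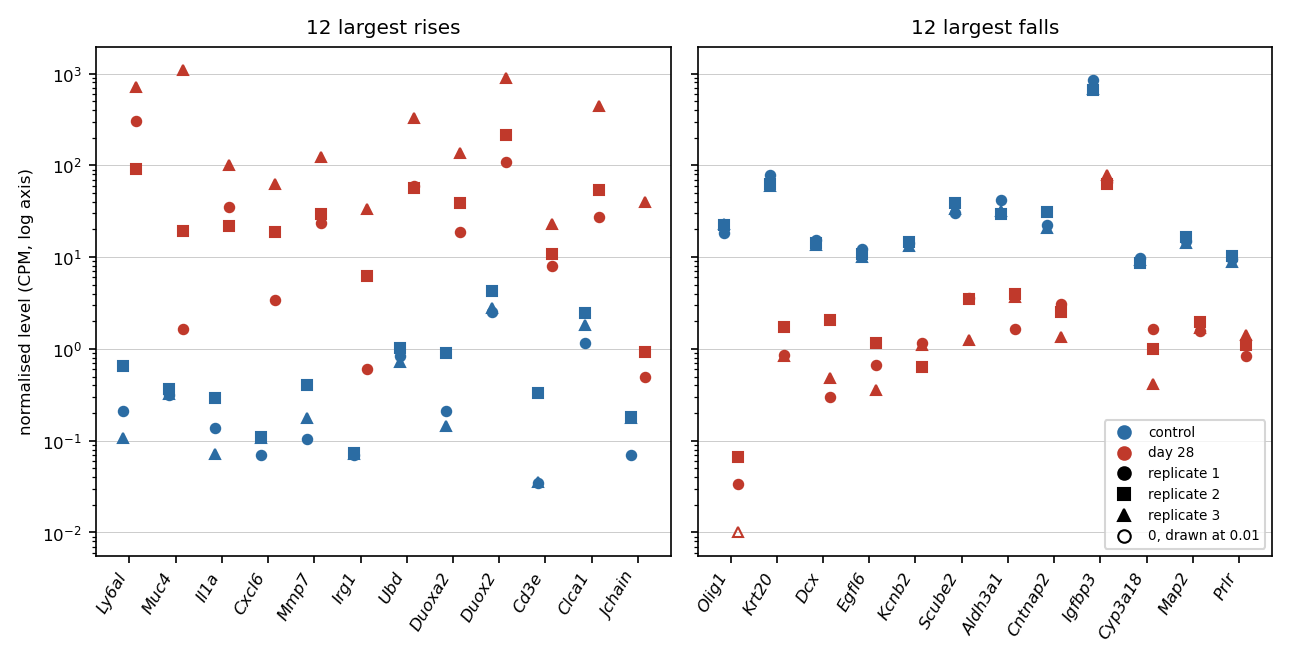
Level in each of the 6 libraries (CPM, log axis) of the 12 genes with the largest rises and the 12 with the largest falls, with controls in blue and day 28 in red and a different symbol for each replicate. Day 28 replicate 3 is the highest library for each of the rises shown. The blue and red points do not overlap for any gene, as the rule that chose the genes required.

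The transcripts that changed most in absolute amount were others. Pigr, the receptor that carries polymeric immunoglobulin across epithelia (chromosome 13, 47564176 to 47592093), rose from 70.3, 106 and 83.4 CPM to 509, 776 and 2539 CPM (3.88 ± 0.52, adjusted p = 0.000648). Cd74, the invariant chain of MHC class II, rose from 268, 251 and 262 CPM to 986, 1683 and 1988 CPM (2.58 ± 0.26, adjusted p = 0.000139). Apoe, the lipid carrier made by macrophages and other cells, rose from 151, 94.1 and 138 CPM to 1512, 1011 and 455 CPM (2.96 ± 0.43, adjusted p = 0.00109). Unlike the mucosal genes, Apoe was lowest in day 28 replicate 3. B2m, the light chain of MHC class I, rose by 1.28 ± 0.24 (adjusted p = 0.00392), Tmsb4x, an actin-binding thymosin, by 0.97 ± 0.20 (adjusted p = 0.00734) and Pabpc1, a poly(A)-binding protein, by 0.72 ± 0.13 (adjusted p = 0.00314). Among the abundant falls Gsn, the actin-severing protein gelsolin, went from 3306, 3062 and 3745 CPM to 1963, 1259 and 1053 CPM (-1.24 ± 0.23, adjusted p = 0.00406). Other falls of this kind depended on single libraries. Ahnak (-0.78, adjusted p = 0.0155) lost its call without control replicate 2 and with only these groups fitted (0.0501 to 0.0532). Rmrp (-0.52, adjusted p = 0.0309), whose gene number RefSeq gives to Rpph1, lost it without any of 5 libraries (control replicates 2 and 3 and all of day 28, 0.0518 to 0.0917). Col1a1 and Mylk, given below, also fell by large amounts, and their calls were lost without some single libraries.

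Most tested markers of T and NK lymphocytes and of macrophages rose. Of 24 tested T and NK lymphocyte genes (25 listed), 22 were called higher and 0 lower, with a median log2 fold change of 3.43 against 0.000235 over all genes tested. Their summed level was 87.3 to 94.2 CPM in controls and 301 to 425 CPM at day 28. Foxp3, the regulator of regulatory T cells, rose from 0.139, 0.109 and 0.179 CPM to 9.74, 7.46 and 5.94 CPM (5.72 ± 0.47, adjusted p = 6.74e-05), though it overlaps Ccdc22, which has more counts. Ctla4, an inhibitory receptor of activated and regulatory T cells, rose by 6.02 ± 0.56 (adjusted p = 0.000115), Cd8b, a chain of the coreceptor of cytotoxic T cells, by 5.50 ± 0.58 (with an overlapping row, LOC108350716, on the other strand) and Lck, the kinase at the T-cell receptor, by 3.37 ± 0.33. The 2 members that did not pass the test were the granzyme gene Gzma (0.25) and Cd3g (0.95). Between 19 and 22 of the 24 were called when any 1 library was left out.

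Of 19 tested macrophage and myeloid genes (20 listed), 18 were called higher and 0 lower, with a median of 2.04, and 15 to 19 when 1 library was left out. The sum of their levels was 652 to 770 CPM in controls and 2051 to 3120 CPM at day 28. Laptm5, a lysosomal protein of leukocytes, rose from 23.8, 21.9 and 27.7 CPM to 111, 136 and 125 CPM (2.35 ± 0.12, adjusted p = 4.26e-06). Cd68, the macrophage lysosomal marker, rose from 23.5, 17.7 and 21.6 CPM to 134, 109 and 89.0 CPM (2.40 ± 0.27, adjusted p = 0.000255), and Ptprc, the pan-leukocyte phosphatase CD45, from 18.6, 20.8 and 25.2 CPM to 88.4, 136 and 147 CPM (2.52 ± 0.26, adjusted p = 0.000148). For these 3 genes the day 28 libraries lay near each other, and every day 28 library exceeded every control.

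For neutrophils, 7 of 13 tested genes (17 listed) were called higher and 0 lower (median 3.81). Ncf1, the p47 subunit of the phagocyte NADPH oxidase, rose from 4.59, 4.70 and 4.61 CPM to 58.0, 69.1 and 67.5 CPM (3.81 ± 0.28, adjusted p = 4.61e-05) and its values were close together within each group. Csf3r, the receptor of the neutrophil growth factor, rose by 5.27. Mmp9, the gelatinase of neutrophil granules, rose from 6 counts over the controls to 5.70, 3.60 and 9.50 CPM (6.37 ± 1.64, adjusted p = 0.0197), a call lost without any 1 control (0.0616 to 0.0751). The list count was 4 without any 1 control and 6 to 9 without any 1 day 28 library. Among 12 tested mast cell genes (15 listed), 4 rose and 1 fell (median 0.60): the tryptase Tpsab1, which has near-identical copies, was higher by 3.56 ± 0.57 (adjusted p = 0.00184) and the chymase Cma1 by 1.61 ± 0.34 (adjusted p = 0.00819). The fall was not called without control replicate 1 or day 28 replicate 2. The summed level of the mast cell list went the other way from its median, from 319 to 371 CPM in controls to 288, 278 and 315 CPM at day 28.

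**Figure D3:**
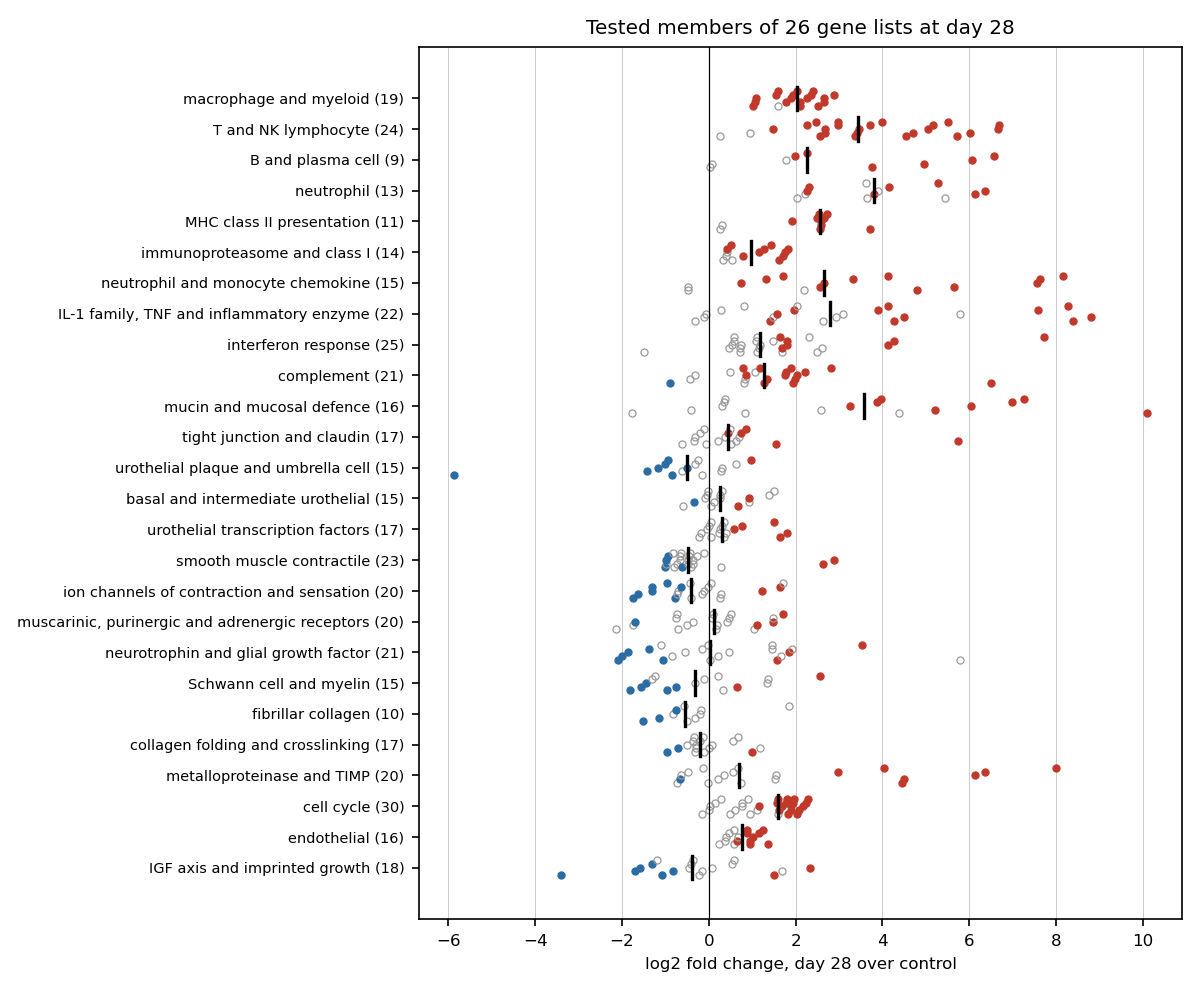
Log2 fold change of day 28 over control for every tested member of 26 gene lists, with the number tested in brackets, called members filled (red higher, blue lower), other members as open circles and the median of each list as a black bar. The T and NK lymphocyte members lie almost wholly to the right with a median of 3.43, while the smooth muscle contractile members centre on -0.49.

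B and plasma cell genes were mostly at low counts, and of 18 listed genes 9 passed the filter; 6 of these were called higher and 0 lower (median 2.26), and 4 without any 1 control. Their summed level overlapped between groups, at 669 to 747 CPM in controls and 638, 681 and 990 CPM at day 28. The filter lets a gene pass more easily where it is high at day 28, so the 9 are not all members. Blk, a kinase of the B-cell receptor, rose by 4.96 ± 0.61 (adjusted p = 0.000396) and Cd22, an inhibitory receptor of B cells, from 3.97, 3.61 and 3.36 CPM to 7.47, 20.5 and 15.4 CPM (1.99 ± 0.33, adjusted p = 0.00200). Tnfrsf13b, a receptor for B-cell survival factors, had 1 count in the controls and 100 at day 28, a ratio of 92.3 (95% counting interval 16.2 to 3682). Below the filter, Ms4a1 (CD20) had 11 counts in the controls and 141 at day 28, Cd79b 1 and 110, and Mzb1 3 and 199.

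Immunoglobulin transcripts lay almost wholly in day 28 replicate 3. The row labelled Ig gamma-2A chain C region-like (LOC103692723) stood at 0.133, 2.20 and 349 CPM at day 28 against at most 0.0729 CPM in controls, and that for the alpha chain, Igha, at 0.100, 0.832 and 29.0 CPM, the lowest of which was below 1 control. Their log2 fold changes of 10.84 (adjusted p = 0.0185) and 7.59 (adjusted p = 0.0386) became 4.20 (adjusted p = 0.111) and 3.18 (adjusted p = 0.291) without day 28 replicate 3. Ighv, the heavy chain variable region, had 2.89, 2.19 and 1.86 CPM in controls and 4.5, 10.5 and 318 CPM at day 28 (5.58 ± 1.40, adjusted p = 0.0174), and 1.69 (adjusted p = 0.0881) without replicate 3; its call was also lost without any 1 control and with a replicate block. Among T-cell receptor segments the alpha chain row LOC685078 rose from 0.0348, 0.255 and 0.143 CPM to 11, 11.9 and 24.0 CPM (6.73 ± 0.65, adjusted p = 0.000131), and by 6.28 without replicate 3. All 9 tested constant-region rows (13 listed), of immunoglobulins and T-cell receptors together, were called higher. So were 9 of 19 tested variable segments (469 listed), against 11% of all genes. Without day 28 replicate 3 or any 1 control, 4 constant regions and 5 or 6 variable segments were called higher. No immunoglobulin constant region kept its call in any of those fits. The adjusted p was then 0.0712 to 0.111 for LOC103692723 and 0.106 to 0.291 for Igha. The filter lets a row pass more easily where it is high at day 28, so these shares do not describe all listed rows. The 2 variable segments called lower were also of the T-cell receptor alpha chain, LOC103693846 (-2.53, adjusted p = 0.00590) and LOC684995 (-1.87, adjusted p = 0.0250), and the second lost its call in 4 of the 6 fits that left out a library. Reads from these near-identical segments can be divided between rows in ways the files do not show.

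Antigen presentation rose in both classes. Of 11 MHC class II presentation genes, 9 were called higher and 0 lower (median 2.56; 8 or 9 without any 1 library), and their summed level went from 467 to 512 CPM in controls to 1709 to 3504 CPM at day 28. The polymorphic chains RT1-Bb (2.66), RT1-Db1 (2.58) and RT1-Da (2.53) rose by nearly the same factor as Cd74 (2.58). Of 14 immunoproteasome and class I genes, 10 were higher and 0 lower (median 0.97), and 6 without control replicate 2, control replicate 3 or day 28 replicate 3. Psmb8, a catalytic subunit that the immunoproteasome has in place of a constitutive one, rose from 4.35, 3.86 and 4.18 CPM to 8.24, 12.8 and 23.2 CPM (1.83 ± 0.30, adjusted p = 0.00190). Nlrc5, the transactivator of class I genes, rose from 14.6, 13.7 and 13.8 CPM to 35.1, 29.3 and 74.2 CPM (1.72 ± 0.29, adjusted p = 0.00247), and by 1.20 without day 28 replicate 3; a non-coding row, LOC108348891, overlaps it on the other strand.

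Of 25 interferon response genes, 7 were called higher and 0 lower (median 1.17). The count was 4 without any 1 control or without day 28 replicate 3, and 18 with only these 2 groups fitted. Those called included the interferon-gamma-induced chemokine Cxcl10, which went from 2.12, 2.0 and 2.07 CPM to 21.8, 17.6 and 80.2 CPM (4.27 ± 0.81, adjusted p = 0.00448) and overlaps Art3, which has more counts. Irf1, an interferon-induced transcription factor, rose by 1.65, and by 1.00 without day 28 replicate 3. Cxcl11 had 1 count in the controls and 320 at day 28, a ratio of 295 (95% counting interval 52.6 to 11704), and it too overlaps Art3.

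Chemokines that draw neutrophils and monocytes made up a list of 15 tested genes, of which 12 were called higher and 0 lower (median 2.65). The count dropped to 4, 5 and 3 without control replicates 1, 2 and 3, to 8 without day 28 replicate 2 and to 7 without day 28 replicate 3. Cxcl1, a ligand of the neutrophil receptor CXCR2, rose from 0.313, 0.437 and 0.250 CPM to 13.7, 23.0 and 13.8 CPM (5.64 ± 1.04, adjusted p = 0.00375), without a lead of replicate 3. Cx3cl1, fractalkine, the membrane-bound ligand of CX3CR1, rose by 2.55 ± 0.24 and kept its call in every alternative. Ccl20, which draws CCR6-bearing lymphocytes and dendritic cells, had 1 count in the controls and 297 at day 28, a ratio of 274 (95% counting interval 48.8 to 10866), with a call lost without any 1 control (0.0541 to 0.0602).

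Because several of these genes moved together, the 250 bases before their start sites were read from the RefSeq promoter table (GRCr8) and searched on both strands for the NF-kB consensus of 10 letters, for the interferon-stimulated response element written as GAAANNGAAA and for the AP-1 element TGANTCA. The NF-kB letters were present in 6.33% of all 33469 promoters in the table and in 8.37% of the 12490 promoters of tested genes. They were present in 4 of the 7 chemokine promoters found among those called higher (Cxcl1, Cxcl2, Cxcl6 and Ccl20), where neither other motif was found. Among the 7 interferon response genes called, 4 promoters held the NF-kB letters, 4 the interferon element and 3 the AP-1 element. Cxcl10 held all 3. The interferon element was in 3.41% of all promoters and 2.74% of those of tested genes. For the AP-1 element these shares were 6.34% and 4.82%. Among 8 immunoproteasome and class I promoters, 5 held the interferon element and 3 the NF-kB letters, B2m both. Among 7 MHC class II promoters 2 held the NF-kB letters, 1 the interferon element and 0 the AP-1 element, and among 6 of the mucosal genes each motif was found in 1. Promoters were looked up by symbol, and 9 of the 12 largest rises had one found. Of these 9, 2 held the NF-kB letters, 1 the interferon element and 3 the AP-1 element. Irg1, which the RefSeq table holds as Acod1, was not among those searched. Of the 12 largest falls 7 had a promoter found in the same way and 0 of them held any of the 3 motifs. A match describes letters and is no evidence of binding. The stretches below, from the RefSeq table, run 5′ to 3′ on the gene's strand up to the base before the start site, with motif matches in capitals, and are shown so that the shared letters in Cxcl1, Cxcl2, Cxcl6 and Ubd can be set beside the mixed promoters of Cxcl10 and B2m.
Cxcl1: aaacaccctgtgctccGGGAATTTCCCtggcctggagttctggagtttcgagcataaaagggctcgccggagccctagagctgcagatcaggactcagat
Cxcl2: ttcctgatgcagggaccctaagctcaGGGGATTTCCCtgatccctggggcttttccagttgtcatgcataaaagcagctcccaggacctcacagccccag
Cxcl6: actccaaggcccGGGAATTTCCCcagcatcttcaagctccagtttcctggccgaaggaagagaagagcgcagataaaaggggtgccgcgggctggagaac
Ubd: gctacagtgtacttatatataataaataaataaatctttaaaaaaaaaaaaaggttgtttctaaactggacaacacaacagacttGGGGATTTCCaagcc
Cxcl10: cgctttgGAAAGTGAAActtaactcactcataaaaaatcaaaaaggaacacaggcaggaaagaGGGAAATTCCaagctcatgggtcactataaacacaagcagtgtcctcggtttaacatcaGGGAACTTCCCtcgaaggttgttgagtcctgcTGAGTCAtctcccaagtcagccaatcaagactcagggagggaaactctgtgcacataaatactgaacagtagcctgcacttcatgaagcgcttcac
B2m: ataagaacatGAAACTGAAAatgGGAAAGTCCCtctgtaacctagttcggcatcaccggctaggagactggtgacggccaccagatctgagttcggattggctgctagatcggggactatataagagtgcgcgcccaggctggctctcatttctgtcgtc

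In Cxcl1 (chr14:17479322-17479421, minus strand), Cxcl2 (chr14:17467256-17467355, minus strand) and Cxcl6 (chr14:17596418-17596517, minus strand) the capitals mark a pair of overlapping NF-kB matches, and in Ubd (chr20:1392686-1392785, minus strand) a lone match. In Cxcl10 (chr14:15988816-15989065, plus strand) they mark the interferon element, NF-kB matches and the AP-1 element. In B2m (chr3:129549170-129549329, plus strand) they mark the interferon element and an NF-kB match.

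Of 22 tested genes of the IL-1 family, TNF and inflammatory enzymes, 11 were higher and 0 lower (median 2.79), and 5 to 7 without any 1 control, day 28 replicate 2 or day 28 replicate 3. Il1b, the inflammasome-processed form of interleukin-1, rose from 1.53, 1.57 and 2.64 CPM to 14.2, 48.4 and 67.6 CPM (4.5 ± 0.79, adjusted p = 0.00292), and Casp1, the protease that processes it, by 1.96. Csf3, which encodes the granulocyte growth factor G-CSF, rose by 4.26 ± 0.89 (adjusted p = 0.00724) from a low level, reaching 0.901, 3.66 and 2.54 CPM. Genes of lymphoid tissue organisation included 5 that rose and 1 that fell of 13 tested and 18 listed (median 1.38), and 3 rose without any 1 control, day 28 replicate 2 or day 28 replicate 3. Ccr7, which guides lymphocytes and dendritic cells to lymphoid tissue, rose by 4.74 ± 0.49 (adjusted p = 0.000148). Cxcl13, which draws B cells, had 3.84, 10.7 and 81.6 CPM at day 28 against 1.11, 2.26 and 1.11 CPM (4.42 ± 0.97, adjusted p = 0.00923), and 2.28 without day 28 replicate 3.

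Complement was broadly higher, with 14 of 21 genes called up, 1 down and a median of 1.28 (9 to 14 up without any 1 library, fewest without control replicate 2). No gene was called down in any fit that left out 1 library. C3, the central component of the cascade, rose from 3.24, 2.55 and 2.47 CPM to 129, 234 and 389 CPM (6.51 ± 0.78, adjusted p = 0.000352). The next by size among those named by rule was C3ar1, the receptor of its fragment C3a, with 2.22, followed by the C1q chains C1qb (1.93) and C1qa (1.89).

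Among genes known from epithelia, 8 mucosal defence genes rose and 7 umbrella cell genes fell. Of 16 tested mucin and mucosal defence genes (24 listed), 8 were higher and 0 lower (median 3.57, and 8 to 10 higher without any 1 library). Their summed level was 376 to 571 CPM in controls and 811, 1442 and 5402 CPM at day 28. The filter lets a gene pass more easily where it is high at day 28, so the count and median do not cover all listed members. Below the filter, Muc13 had 5 counts in the controls and 77 at day 28, Cftr 23 and 21, and Tff2 20 and 5. Slpi, a secreted inhibitor of neutrophil elastase, rose from 1.67, 2.33 and 1.79 CPM to 24.6, 53.0 and 138 CPM (5.22 ± 0.65, adjusted p = 0.000409). Muc20, a membrane mucin next to Muc4, rose from 0.731, 1.17 and 0.322 CPM to 12.5, 21.9 and 112 CPM (6.04 ± 0.99, adjusted p = 0.00202). Day 28 replicate 3 was the highest library for both, and both rose without it (4.33 and 4.53).

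Of 15 urothelial plaque and umbrella cell genes, 7 were lower and 1 higher (median -0.51; 5 to 8 lower without any 1 library). Besides Krt20, the uroplakin Upk2 fell from 925, 1051 and 964 CPM to 459, 492 and 359 CPM (-1.17 ± 0.18, adjusted p = 0.00161). Upk1a, a tetraspanin of the plaque, fell from 1736, 1948 and 1632 CPM to 783, 891 and 1094 CPM (-0.94 ± 0.14, adjusted p = 0.00134). The minor uroplakin Upk3b fell by 1.43 ± 0.26 (adjusted p = 0.00359) and the simple-epithelial keratin Krt18 by 1.01 ± 0.17 (adjusted p = 0.00231). Upk3a, the partner of Upk1b in the plaque, had 1246, 1361 and 1182 CPM in controls and 1061, 983 and 1366 CPM at day 28, so the groups overlapped (-0.15, adjusted p = 0.532). Krt19 was higher (0.98 ± 0.29, adjusted p = 0.0358), a call lost without any 1 control, day 28 replicate 1 or day 28 replicate 3 (0.0703 to 0.104).

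Of 15 basal and intermediate cell genes 2 were higher and 1 lower (20%, against 18.5% of all genes; median 0.26). The higher count was 1 without any library other than day 28 replicate 1, and the lower count 0 in all 6 fits that left out a library. Krt5, the basal keratin, had 90.7, 161 and 146 CPM in controls and 234, 388 and 418 CPM at day 28, which did not pass the test (1.39 ± 0.49, adjusted p = 0.0699) although the groups did not overlap; it passed with no filter (0.0457), with only these 2 groups fitted (0.0120) and with a replicate block (0.00333). Among 17 urothelial transcription factors 5 were higher and 0 lower (median 0.31), in every fit that left out 1 library. Elf3, an epithelial ETS factor, rose from 141, 96.5 and 120 CPM to 235, 288 and 496 CPM (1.51 ± 0.30, adjusted p = 0.00543), the Kruppel-like factor Klf5 by 0.76 and the ETS factor Ehf by 0.59. Of 17 tight junction genes 5 were higher and 0 lower (median 0.45), and 2 or 3 without any 1 control, day 28 replicate 2 or day 28 replicate 3. Tjp3, a scaffold of the junction that overlaps Apba3 on the other strand, rose from 51.0, 48.6 and 51.0 CPM to 126, 126 and 188 CPM (1.55 ± 0.18, adjusted p = 0.000279) and F11r, a junctional adhesion molecule, by 0.84. Of 17 genes of water, urea and ion transport 3 were higher and 0 lower (median 0.11), among them Clca4 (2.41), while 1 of 7 squamous genes, the cornified envelope gene Ivl, was higher (3.59, lost without any 1 control, 0.0677 to 0.0773). The shares called in these lists were 17.6% and 14.3%, against 18.5% of all genes.

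**Figure D4:**
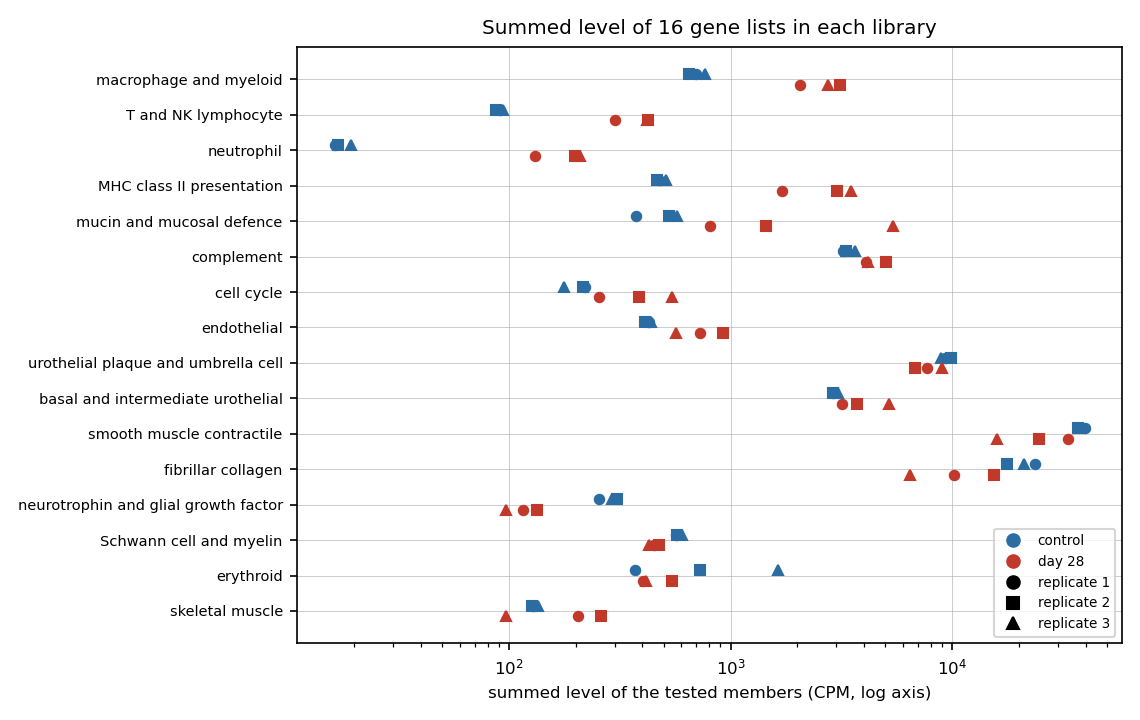
Summed level (CPM, log axis) of the tested members of 16 gene lists in each of the 6 libraries, with controls in blue, day 28 in red and a symbol for each replicate. The sums of the macrophage, T and NK lymphocyte, neutrophil, MHC class II, complement and mucosal lists are higher in all day 28 libraries than in all controls, and the smooth muscle sums lie between 15916 and 33225 CPM at day 28 against 36866 to 39552 CPM in controls, lowest in replicate 3.

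Of 23 contractile genes of smooth muscle, 4 were called lower and 2 higher (median -0.49; 1 higher in every fit that left out a library other than day 28 replicate 3). The summed level was 36866 to 39552 CPM in controls and 33225, 24694 and 15916 CPM at day 28, so that replicate 3, with the highest mucosal levels, had the lowest muscle sum; the part of tissue make-up in either result was not tested. The number called lower was 16 without day 28 replicate 1, 1 without day 28 replicate 2, day 28 replicate 3 or control replicate 2, 2 without control replicate 1 or 3, and 10 with a replicate block. Myh11, the smooth muscle myosin heavy chain, had 11449, 9360 and 9459 CPM in controls and 8476, 5418 and 3580 CPM at day 28 (-0.79 ± 0.31, adjusted p = 0.103). Acta2, smooth muscle actin, was at -0.45 (adjusted p = 0.178) and Des, desmin, at -0.36 (adjusted p = 0.351). Mylk, the myosin light chain kinase that starts contraction, went from 4020, 4356 and 3852 CPM to 2758, 1977 and 1462 CPM (-0.98 ± 0.25, adjusted p = 0.0179), and lost its call without control replicate 2, day 28 replicate 2 or day 28 replicate 3 (0.0565 to 0.0608). Tagln, the actin-binding protein transgelin, was lower by 0.94 (adjusted p = 0.0364), a call lost in all 5 fits that left out a library other than day 28 replicate 1 (0.0788 to 0.0943).

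Against this, Itga8, an integrin chain of contractile cells, rose from 6.89, 7.22 and 9.68 CPM to 57.8, 69 and 19.4 CPM (2.62 ± 0.55, adjusted p = 0.00738). Of 20 ion channel genes of contraction and sensation, 7 were lower and 2 higher (median -0.42), and 3 to 5 were lower without any 1 control, day 28 replicate 2 or day 28 replicate 3; 1 was higher without control replicate 1 or day 28 replicate 2. Kcnma1, the large-conductance calcium-activated potassium channel that damps detrusor firing, fell from 141, 169 and 132 CPM to 69, 53.0 and 55.2 CPM (-1.32 ± 0.19, adjusted p = 0.000909). Abcc9, the sulfonylurea receptor of ATP-sensitive potassium channels, fell from 196, 178 and 175 CPM to 120, 87.8 and 72.6 CPM (-0.97 ± 0.18, adjusted p = 0.00365).

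Of 20 receptors for the transmitters of the bladder 3 were called higher and 1 lower (20%, against 18.5% of all genes; median 0.13). Chrm2, the more abundant muscarinic receptor of the detrusor, had 49.4, 54.0 and 51.9 CPM in controls and 102, 73.0 and 39.8 CPM at day 28, so that day 28 replicate 3 was below and the others above all controls (0.47, adjusted p = 0.218). Without day 28 replicate 3 it was called higher (0.76, adjusted p = 0.00724). Chrm3, the receptor that drives contraction, overlapped between groups (-0.36, adjusted p = 0.561), and P2rx1, the ATP-gated channel of detrusor cells, did not pass the test (-0.70, adjusted p = 0.255). Adrb3, the adrenergic receptor that relaxes the detrusor, fell from 6.20, 6.78 and 5.57 CPM to 2.53, 1.40 and 1.80 CPM (-1.69 ± 0.45, adjusted p = 0.0229), with a call lost in all 5 fits that left out a library other than day 28 replicate 1 (0.0518 to 0.0839). Of 19 endothelin, angiotensin and prostaglandin genes 4 were higher and 3 lower (median 0.35); 2 were higher without control replicate 1, and 1 was lower without any 1 control or without day 28 replicate 3. Ednra, the endothelin receptor of muscle, rose from 11.8, 13.2 and 12.0 CPM to 47.3, 45.1 and 26.7 CPM (1.69 ± 0.23, adjusted p = 0.000833).

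Neurotrophin and glial growth factor genes moved both ways. Of 21 genes 3 were higher and 5 lower (median 0.02), and the summed level went from 255 to 308 CPM in controls to 116, 134 and 97.3 CPM at day 28. The higher count was 1 without control replicate 1, control replicate 2 or day 28 replicate 2, and the lower count 3 without control replicate 2, control replicate 3 or day 28 replicate 3. Bdnf, a neurotrophin that sensitises bladder afferents, rose from 0.209, 0.401 and 0.322 CPM to 4.47, 4.93 and 1.54 CPM (3.54 ± 0.69, adjusted p = 0.00507). Gfra1, the coreceptor of GDNF, fell from 31.4, 40.4 and 30.6 CPM to 7.87, 8.29 and 7.67 CPM (-2.10 ± 0.17, adjusted p = 6.62e-05). Cntfr, the receptor of ciliary neurotrophic factor, fell from 151, 164 and 161 CPM to 51.9, 39.8 and 27.7 CPM (-1.99 ± 0.32, adjusted p = 0.00186). The ligand neurturin, Nrtn, which sustains parasympathetic neurons, fell by 1.38 ± 0.25 (adjusted p = 0.00330).

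Of 15 Schwann cell and myelin genes 5 were lower and 2 higher (median -0.31), and 3 were lower without control replicate 2, control replicate 3 or day 28 replicate 3. Scn7a, a sodium channel of non-myelinating Schwann cells, fell by 1.81 and Cdh19, a cadherin of the Schwann lineage, by 1.56. Only 7 of 18 neuronal and autonomic genes passed the filter, of which 2 were lower and 1 higher (median -0.39). Stmn2, the neuronal microtubule regulator SCG10, fell from 9.61, 7.76 and 5.68 CPM to 0.534, 0.832 and 1.28 CPM (-3.11 ± 0.46, adjusted p = 0.00112). Most nerve cell bodies that serve the bladder lie outside it, so a bladder library holds little neuronal RNA.

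Genes of the extracellular matrix did not move as a block. Of 10 fibrillar collagen genes 3 were lower and 0 higher (median -0.54), and the count lower was 1 without control replicate 1, control replicate 3, day 28 replicate 1 or day 28 replicate 3 and 5 without day 28 replicate 2 or with a replicate block. The summed level was 17636 to 23539 CPM in controls and 10240, 15500 and 6433 CPM at day 28. Col1a1, the alpha 1 chain of type I collagen, was lower, with 12347, 8250 and 10221 CPM in controls and 4637, 6677 and 2657 CPM at day 28 (-1.14 ± 0.31, adjusted p = 0.0258), and the call was lost without any of the 4 libraries just named (0.0530 to 0.0893). Col3a1 did not pass the test (-0.83, adjusted p = 0.0516). It was called lower in 4 alternatives: with no filter, with a replicate block, without day 28 replicate 2 and with DESeq2. Lum, the collagen-binding proteoglycan lumican, fell from 457, 526 and 662 CPM to 229, 359 and 250 CPM (-0.97 ± 0.19, adjusted p = 0.00506), the only call among 14 proteoglycan genes (median 0.03).

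Enzymes that fold and crosslink collagen gave 1 higher and 2 lower of 17 (median -0.21), basement membrane genes 2 higher and 3 lower of 19 (median -0.11) and elastic fibre genes 2 higher and 1 lower of 15 (median 0.24). The shares called were 17.6%, 26.3% and 20%, against 18.5% of all genes. Collagen folding genes gave 0 in both directions without control replicate 2 or 3, 0 higher also without control replicate 1 or day 28 replicate 2, and 0 lower also without day 28 replicate 3. The higher count for the basement membrane was 0 without control replicates 2 or 3 or day 28 replicates 1 or 2, and for elastic fibres 0 without any 1 control or day 28 replicate 2. Eln, elastin, had 90.5, 166 and 150 CPM in controls and 182, 582 and 177 CPM at day 28 and did not pass the test (1.21 ± 0.53, adjusted p = 0.144). Col4a6, a basement membrane collagen of smooth muscle, fell by 1.33. Of 18 matricellular and tenascin genes 5 were higher and 0 lower (median 0.62), and 2 without any 1 control, day 28 replicate 1 or day 28 replicate 2. Spp1, osteopontin, rose from 0.139, 0.0729 and 0.214 CPM to 5.24, 3.76 and 1.06 CPM (4.51 ± 0.87, adjusted p = 0.00476) and Cthrc1, a secreted protein of activated fibroblasts, by 2.47.

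Of 20 metalloproteinase and TIMP genes 7 were higher and 1 lower (median 0.71), and 3, 3 and 2 were higher without control replicates 1, 2 and 3. Besides Mmp7, Mmp12, the elastase of macrophages, rose from 1.46, 1.49 and 0.929 CPM to 58.2, 17.8 and 8.54 CPM (4.44 ± 0.79, adjusted p = 0.00325). Its order over the day 28 libraries was the reverse of that of the mucosal genes, highest in replicate 1. Of 23 TGF-beta, activin and BMP genes 3 were higher and 0 lower (median 0.20), or 13% called against 18.5% of all genes. Tgfb1 rose from 25.8, 26.4 and 25.9 CPM to 61.1, 73.2 and 70.9 CPM (1.39 ± 0.13, adjusted p = 0.000101). Grem1, an extracellular inhibitor of BMPs, rose from 1.18, 1.57 and 1.86 CPM to 60.6, 112 and 41.0 CPM (5.54 ± 0.61, adjusted p = 0.000216).

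Proliferation genes were higher, with 17 of 30 cell cycle genes called up and 0 down (median 1.59). The summed level was 176 to 221 CPM in controls and 255, 387 and 542 CPM at day 28, and the count was 8 without control replicate 2, control replicate 3 or day 28 replicate 3 and 11 with only these groups fitted. Mki67, the proliferation antigen Ki-67, rose from 17.2, 9.22 and 7.32 CPM to 23.2, 49.7 and 78.3 CPM (2.16 ± 0.44, adjusted p = 0.00647), and by 1.70 without day 28 replicate 3. Endothelial genes gave 9 of 16 higher and 0 lower (median 0.77), but 4 without any 1 control, 6 without day 28 replicate 1 and 2 without day 28 replicate 2. Kdr, the main receptor of vascular endothelial growth factor, rose from 29.4, 27.2 and 27.1 CPM to 54.7, 71.1 and 44.3 CPM (1.02 ± 0.20, adjusted p = 0.00505).

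Among 18 genes of the IGF axis and imprinted growth regulation 6 were lower and 2 higher (median -0.38). Igfbp5, a binding protein of muscle and matrix, fell from 244, 221 and 232 CPM to 93.1, 97.7 and 91.3 CPM (-1.31 ± 0.17, adjusted p = 0.000509), and the imprinted zinc-finger gene Peg3 from 123, 104 and 115 CPM to 45.0, 44.4 and 25.1 CPM (-1.58 ± 0.25, adjusted p = 0.00173). Igfbp4 moved the other way, from 82.1, 136 and 118 CPM to 289, 337 and 322 CPM (1.49 ± 0.24, adjusted p = 0.00171). Of 26 EGF, FGF, HGF and PDGF genes 5 were higher and 1 lower (median 0.10, 23.1% called against 18.5% of all genes), and 3 were higher without any 1 control. Egfr, the EGF receptor, fell from 247, 268 and 219 CPM to 138, 143 and 135 CPM (-0.82 ± 0.11, adjusted p = 0.000717), while Hgf, hepatocyte growth factor, rose from 3.90, 6.45 and 7.72 CPM to 13, 15.8 and 11.9 CPM (1.18 ± 0.22, adjusted p = 0.00403). Of 23 Wnt and hedgehog genes 2 were higher and 3 lower (median -0.10, 21.7% called), among them the ligand Ihh at -1.90 ± 0.44.

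How far the day 28 state differed from earlier times was tested directly against the 3 libraries of day 7 and of day 14, since each time was compared with the same controls. Against day 7, 1395 genes (7.89%) were higher at day 28 and 1915 (10.8%) lower, 18.7% in all; against day 14, 553 (3.13%) were higher and 215 (1.22%) lower, 4.34% in all. The counts depended on single libraries: against day 7 they were 742 and 1212 without day 7 replicate 2, 877 and 1286 without day 7 replicate 3, and 841 and 1271 without day 28 replicate 3, and against day 14 they ranged from 197 to 773 and from 64 to 347. Those against day 14 fell by over 1.5 times without day 14 replicate 1 (243 and 124) or 2 (208 and 105) and without day 28 replicate 2 (197 and 64) or 3 (245 and 100), while without day 28 replicate 1 the lower count rose to 347.

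Most T and NK lymphocyte genes were higher at day 28 than at either earlier time. Of the 24 tested, 19 were higher at day 28 than at day 7 and 18 higher than at day 14, with 0 lower in either case; the medians against control were 1.19, 1.45 and 3.43 at days 7, 14 and 28. Cd3e was higher than at day 7 by 3.99 (adjusted p = 0.00507) and than at day 14 by 3.60 (adjusted p = 0.0241), and Foxp3 by 3.97 (adjusted p = 0.000256) and 3.69 (adjusted p = 0.00168). The macrophage list was less so, with 3 of 19 higher than at day 7 and 5 higher than at day 14. The neutrophil list had medians against control of 4.03, 4.05 and 3.81, with 1 of 13 genes higher at day 28 than at each earlier time. Of the 16 mucosal genes 7 were higher than at day 7, 1 lower, and 6 were higher than at day 14. Ly6al differed from control by -0.35 at day 7 and 1.10 at day 14, and the day 28 level was higher than these by 10.50 (adjusted p = 0.000187) and 9.05 (adjusted p = 0.000905).

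Some genes already below control fell further by day 28. Krt20 was at -1.32 against control at day 7 and -1.31 at day 14, and its day 28 level was lower than at day 7 by 4.56 (adjusted p = 0.000116) and than at day 14 by 4.57 (adjusted p = 0.000587). Olig1 stood at -3.31 and -2.05 against control at the earlier times, and was lower at day 28 by 5.85 (adjusted p = 0.00106) and 7.11 (adjusted p = 0.00168). Igfbp3 stood at -3.61 and -2.67 against control at the earlier times, and its day 28 level did not differ from them beyond the threshold (0.22, adjusted p = 0.613, and -0.73, adjusted p = 0.145). Most cell cycle, fibrillar collagen and matricellular genes were also lower at day 28 than at day 7. At day 7, however, the medians of these lists lay above control (3.54, 0.97 and 3.24). All but 2 of the 30 cell cycle genes were lower at day 28 than at day 7 (28 lower, 0 higher), yet 13 were higher than at day 14 and 0 lower; the medians against control were 3.54, -0.07 and 1.59 at the 3 times. Fibrillar collagen genes were lower than at day 7 in 9 of 10 cases and matricellular genes in 15 of 18, with 0 and 1 higher. Tnn, the tenascin W gene, was 9.92 above control at day 7. At day 28 it had 0.200, 0.233 and 0.321 CPM, which overlapped with the 0.104, 0.109 and 0.214 CPM of the controls.

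**Figure D5:**
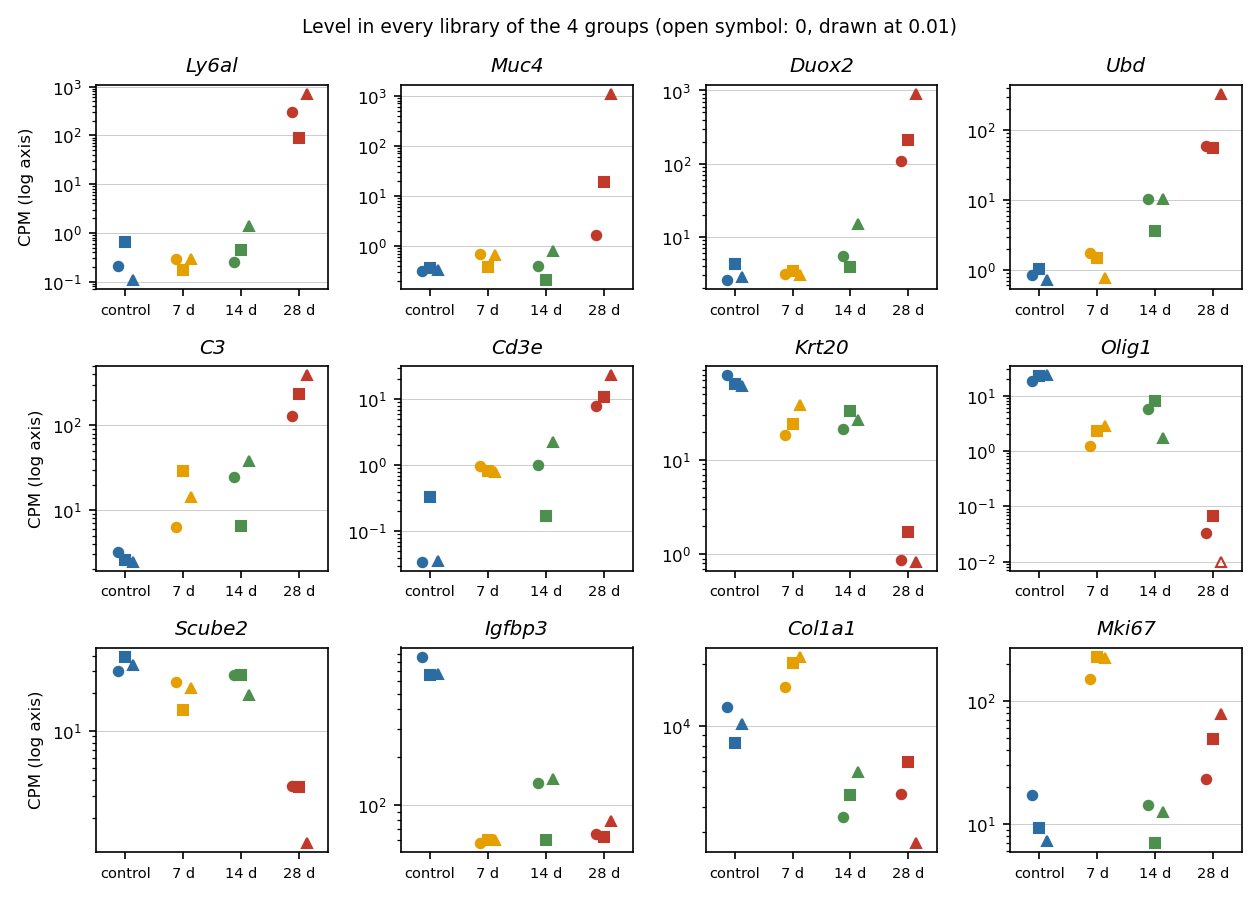
Level (CPM, log axis) of 12 genes in every library of the controls and of days 7, 14 and 28, with a colour for each group, a symbol for each replicate and an open symbol for a value of 0 drawn at 0.01. Ly6al, Muc4, Duox2, Ubd and C3 are highest at day 28, Krt20 and Olig1 lowest at day 28, and Mki67 is highest at day 7, near control at day 14 and above it again at day 28.

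Long non-coding RNAs were the declared subject of the series. Of 1425 tested rows typed as lncRNA, 65 were higher and 68 lower at day 28 (9.33% called, median -0.12), against 19.9% of 15285 protein-coding genes. LOC102548838 rose from 0.453, 0.292 and 0.107 CPM to 4.57, 4.89 and 6.68 CPM (4.22 ± 0.51, adjusted p = 0.000363). LOC102552587 had 1 count in the controls and 1.53, 1.76 and 3.44 CPM at day 28, or 206 counts (7.11 ± 0.95, adjusted p = 0.000660). Of 24 listed non-coding RNAs with known names, 11 had a row and were tested, and Malat1 and Neat1 were among those without. Among the 11, 2 were higher and 4 lower (median -0.28). The 4 were Meg3, Miat, Snhg11, whose row is typed as protein-coding, and Rmrp, typed as RNase MRP RNA. The lower count was 1 without control replicate 3 or day 28 replicate 1. It was 2 without control replicate 2, day 28 replicate 2 or day 28 replicate 3. H19, the imprinted growth-linked RNA, rose from 1.46, 5.03 and 3.22 CPM to 14.1, 25.1 and 9.21 CPM (2.32 ± 0.45, adjusted p = 0.00465), below its day 7 difference of 4.62; its row overlaps Cttn on the same strand. Meg3, listed as RGD1566401, fell from 16.5, 18.6 and 20.0 CPM to 8.74, 10.6 and 6.61 CPM (-1.09, adjusted p = 0.00712), whereas it was 2.01 above control at day 7. In the authors' deposited table of differential non-coding transcripts at day 28, LOC102548838 has a log2 fold change of 4.34 and H19 of 2.43.

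Of 51 tested microRNA precursor rows, 3 were called lower and 0 higher (5.88%). These libraries were made from ribosome-depleted RNA read over 50 bases, so a count here comes from precursor or host transcripts and not from the mature microRNA. Mirlet7a1 had 0.557, 0.765 and 0.572 CPM in controls and 0.233, 0.233 and 0.225 CPM at day 28 (-1.44 ± 0.44, adjusted p = 0.0416). Mir26a had 0.627, 0.401 and 0.357 CPM and then 0.167, 0.166 and 0.128 CPM (-1.56 ± 0.50, adjusted p = 0.0499). Mir6325 had 45 counts in controls and 2 at day 28 (-4.36 ± 1.17, adjusted p = 0.0236). All 3 rest on under 60 counts a group. The hairpins of Mirlet7a1 and Mir26a also encode rno-let-7a-1-3p and rno-miR-26a-3p, which are not shown. A mature sequence of each hairpin, from RefSeq (GRCr8), is shown to tell the 3 apart, with the seed, bases 2 to 8, in capitals. No 2 of those shown share a seed.
rno-let-7a-5p: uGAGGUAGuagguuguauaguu
rno-miR-26a-5p: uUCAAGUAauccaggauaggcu
rno-miR-6325: aAAGUCAGacagagacucugcag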

How the data were processed

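Total RNA from bladder was depleted of ribosomal RNA and read as single 50-base reads, per the labels' protocols; HISAT2 2.1.0, HTSeq 0.11.2, bcl2fastq and build rn6 are named in the submitters' processing notes. The authors deposited raw counts per gene, TPM, with the gene length as another column, and, for non-coding transcripts, tables of log2 fold changes with p-values and q-values. How the counting used strand was not given in the sources used here. The counts were tested; no result rests on the TPM values. Groups came from the labels, and no library was left out.

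Genes were filtered with filterByExpr (minimum count 10, minimum total 15), scaled by TMM and fitted in 1 model over all 12 libraries of 4 groups with edgeR 4.0.16 (R 4.3.3, limma 3.58.1), using the quasi-likelihood test with Benjamini-Hochberg adjustment over all tested genes. Standard errors, given after ±, were derived from the size of each log2 fold change and its F statistic. The counting intervals are exact, at 95%, and cover counting error only. The procedure was also run on simulated counts drawn with the spread estimated from these libraries. Such counts hold no outlying library, and no result here rests on that run. Alternatives were RLE size factors, no filter, a mean of at least 5 CPM, a fit of only the 2 groups, a replicate block, a fold rule, leaving out each library, and DESeq2 1.42.0. Figures used matplotlib 3.10.9 under Python 3.11.15.

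The members and the gene lists were chosen with earlier results of these data known. Named genes were the 12 largest rises and falls among symbols that passed the test, changed by 1 or more on the log2 scale in either direction, averaged 5 CPM or more and had all day 28 values outside the control range; the 6 called genes each way with the largest difference in mean CPM; up to 4 called members of each list with the smallest p; the 5 largest differences each way from day 7 and from day 14; and a fixed set, of which 1 gene is not reported here. Cd3g, Gzma, Cxcl2, Upk1b, the untested B-cell and mucosal genes, immunoglobulin and T-cell receptor rows were named after their values were seen, as were the non-coding rows outside that rule. Of 981 entries in 52 lists, 960 had a row and 874 passed the filter, so counts over a list cover the tested members. In every list a gene passes the filter more easily where it is high in any group. Of 40154 rows 28937 had a gene number in the RefSeq table.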

Additional observations from a re-analysis of the deposited data

Results flagged for a closer look

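Of the 24 genes with the largest rises and falls, 18 differed between day 28 and day 7 and 14 between day 28 and day 14. Of all tested genes, 18.7% and 4.34% did. The 24 were chosen by their values in the same day 28 libraries, which favours such differences, so these counts are no separate evidence. The test was of the difference itself (edgeR's quasi-likelihood test, adjusted over all genes). The values below are log2 differences of day 28 minus the earlier time. Levels at day 28 exceeded those at both day 7 and day 14 for Ly6al (10.50 and 9.05, adjusted p = 0.000187 and 0.000905), Muc4 (9.32 and 9.64, 0.00924 and 0.0272), Duox2 (7.02 and 5.68, 0.000551 and 0.00411), Duoxa2 (6.83 and 4.79, 0.00146 and 0.0147), Ubd (6.81 and 4.20, 0.000528 and 0.00955) and Cd3e (3.99 and 3.60, 0.00507 and 0.0241). Without day 28 replicate 3 the Muc4 differences were 4.17 and 4.49.

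Irg1 (8.90, adjusted p = 0.0137), Il1a (8.37, 0.00507), Clca1 (5.90, 0.0438) and Mmp7 (3.95, 0.0298) exceeded day 7 but did not pass the test against day 14. Day 28 levels lay below both earlier times for Olig1 (-5.85 and -7.11, adjusted p = 0.00106 and 0.00168), Krt20 (-4.56 and -4.57, 0.000116 and 0.000587), Scube2 (-2.88 and -3.17, 0.000546 and 0.00168) and Kcnb2 (-2.78 and -3.44, 0.00171 and 0.00259). The same held for Cntnap2 (-2.28 and -2.78, 0.00104 and 0.00180), Cyp3a18 (-1.97 and -1.97, 0.0163 and 0.0423), Egfl6 (-1.74 and -2.48, 0.0165 and 0.0114) and Map2 (-1.74 and -2.55, 0.00293 and 0.00196).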

How the results depend on the processing

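Against control, 1946 genes were higher and 1329 lower; RLE size factors gave 1946 and 1317, no filter 1941 and 1164, a mean of at least 5 CPM 1393 and 1038, a fit of only the 2 groups 2007 and 1488, and DESeq2 2387 and 1704. Asking also for a change of 1 or more on the log2 scale left 1245 and 590. Leaving out 1 library gave 1209 to 1936 higher and 760 to 1347 lower genes against control, 742 to 1373 and 1212 to 1902 against day 7, and 197 to 773 and 64 to 347 against day 14. DESeq2 called 1076 and 525 genes against day 14, in place of 553 and 215; the cause was not tested. Same-numbered libraries did not deviate together (correlations of -0.0216 to 0.151 over 18 pairs, against -0.209 to 0.104 for other pairs), so the numbers were not taken as pairs; the fit with a replicate block called 1975 and 1465 genes against control, 1481 and 1982 against day 7 and 594 and 233 against day 14. Of 202 named genes called against control, 145 kept their call in every alternative run, 57 lost it in at least 1, most often without control replicate 3 (48), and 0 changed direction. Of the named genes not called, Trh (log2 fold change 1.87) ran from -1.89 to 3.76 over the fits without 1 library and changed sign without day 28 replicate 2. Each group held 3 libraries, and genes with few counts in a group have wide counting intervals.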

Other observations

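The counts below stand beside 11% of all genes called higher and 7.51% lower. In the retinoic acid list 3 of 15 tested genes were higher and 0 lower (median -0.04): Aldh1a3, which makes retinoic acid, rose from 2.54, 3.72 and 3.89 CPM to 56.7, 83.0 and 123 CPM (4.69 ± 0.86, adjusted p = 0.00360), and Rarres1, a retinoid-induced gene, from 6.58, 5.58 and 5.18 CPM to 28.3, 27.1 and 51.2 CPM (2.62 ± 0.31, adjusted p = 0.000292). Of 16 aryl hydrocarbon receptor and xenobiotic genes 4 were higher and 3 lower (43.8%; median 0.20), with 2 higher without control replicate 1, control replicate 3, day 28 replicate 2 or day 28 replicate 3. Hmox1, haem oxygenase, rose from 14.0, 13.3 and 13.5 CPM to 46.7, 42.3 and 33.0 CPM (1.58 ± 0.35, adjusted p = 0.00916), while Ces1f, a carboxylesterase, fell from 29.1, 28.1 and 33.7 CPM to 6.90, 2.73 and 7.93 CPM (-2.37 ± 0.41, adjusted p = 0.00251). Of 23 respiratory chain genes 3 were higher and 3 lower (26.1%; median 0.02), and 1 was higher without control replicate 2, control replicate 3, day 28 replicate 1 or day 28 replicate 3. Among them were Cox5a at 0.67, Cox6c at -0.48 and Ndufs4 at -0.71.

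Of 19 circadian clock genes 1 was higher and 3 lower (median -0.34), and the 3 falls were lost without control replicate 3, day 28 replicate 2 or day 28 replicate 3. Of 18 sterol synthesis genes 1 was higher (median 0.08), a call lost without any 1 control or day 28 replicate 2, and of 19 immediate early genes 1 was higher (median 0.40), lost without control replicate 2, control replicate 3 or day 28 replicate 2. The adipocyte list had 5 of 19 higher (median 0.17), and 1 without any 1 control or without day 28 replicate 2, the library with the highest level of Adipoq (0.300, 14.8 and 3.98 CPM against 0.0696, 0.0364 and 0.357 CPM). Erythroid genes had 0 of 12 called (median -1.08), skeletal muscle genes 1 of 8, Ckm, lower (-1.71), and mesothelial genes 1 higher, only called without day 28 replicate 2 among the fits that left out a library, and 1 lower of 10 (median -1.39). Pericyte and interstitial cell genes gave 1 higher and 2 lower of 13 (median 0.01; 1 lower without control replicate 3, day 28 replicate 2 or day 28 replicate 3). Resting adventitial fibroblast genes gave 2 higher and 2 lower of 15 (median -0.26; 1 higher without any library other than day 28 replicate 3), among them Myoc, myocilin, which fell from 19.2, 24.2 and 33.2 CPM to 2.40, 3.30 and 6.61 CPM (-2.63 ± 0.52, adjusted p = 0.00562).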
